A study of Mus musculus with 9 samples.

Results

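The genes described here are 8 subunits of the voltage-gated sodium channel, taken as the rows of the count table with the symbols Scn1a, Scn2a, Scn3a, Scn8a, Scn9a, Scn2b, Scn3b and Scn4b, out of 40773 gene symbols in all. RNA was read from 9 cultures of mouse embryonic cortical neurons, 3 with a K+ ion-charged nanostructure (K+ ICN), 3 with a Na+ ion-charged nanostructure (Na+ ICN) and 3 with a non-charged peptide amphiphile (PA). Peptide amphiphiles are short peptides joined to a lipid tail that assemble into fibres. In all 3 groups the labels give a 5 mM stock, a 200 µM treatment and a volume of 80 µl laid on the cells a day after plating. In all 3 groups 50% of the medium was changed at 48 h, and RNA was taken at 72 h after treatment, so no untreated culture is among the groups. The labels give neither strain nor embryonic day, and the series design calls the 3 cultures of a group biological replicates without naming separate animals or dissections. The p-values therefore cover the variation among these cultures, which may be technical.

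A voltage-gated sodium channel is a large pore-forming alpha subunit that opens on depolarisation and carries the inward current of the action potential, joined by small beta subunits that are single-pass membrane proteins with an immunoglobulin-like domain. The alpha members are Scn1a, Scn2a, Scn3a, Scn8a and Scn9a, and the beta members are Scn2b, Scn3b and Scn4b. In developing cortex Scn3a and Scn2a are the early alpha subunits, Scn8a becomes the main one of the mature axon initial segment and node of Ranvier, and Scn1a is prominent in GABAergic interneurons.

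By GENCODE vM21 annotation on GRCm38, 4 alpha members lie in one cluster of sodium channel genes on chromosome 2, which also holds Scn7a and spans 1327797 bases. Scn3a is at chr2:65457118-65567627 on the minus strand, Scn2a at chr2:65620771-65767447 on the plus strand, Scn1a at chr2:66270778-66440840 on the minus strand and Scn9a at chr2:66480080-66634962 on the minus strand. Scn8a is at chr15:100869858-101045938 on the plus strand. All 3 beta members are on the plus strand of chromosome 9, with Scn3b at chr9:40269217-40291618, Scn2b at chr9:45117782-45130070 and Scn4b next to it at chr9:45138395-45154152. The coding sequences of the alpha members run from 1947 codons in Scn3a to 2009 codons in Scn1a, and the beta members have 215 to 228 codons.

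RefSeq promoter entries on GRCm38.p6 were matched for 6 of the 8 members by symbol. The windows before the annotated starts of 3 alpha members that changed are shown, 250 bases each, read 5′ to 3′ on the strand of the gene. Scn1a fell with Na+ ICN, and Scn2a and Scn8a fell together with K+ ICN. Scn2a and Scn8a have a pair of entries each, of which 1 is printed. The Scn1a window is chr2:66440838-66441087 on the minus strand, the Scn2a window is chr2:65668436-65668685 on the plus strand, and the Scn8a window is chr15:100870395-100870644 on the plus strand. Capitals mark the letters TATAAA.
Scn1a: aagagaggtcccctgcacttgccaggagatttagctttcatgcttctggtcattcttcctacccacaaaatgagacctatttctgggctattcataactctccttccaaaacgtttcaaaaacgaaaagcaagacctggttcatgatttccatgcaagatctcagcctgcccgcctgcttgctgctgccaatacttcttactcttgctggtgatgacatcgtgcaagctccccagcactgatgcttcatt
Scn2a: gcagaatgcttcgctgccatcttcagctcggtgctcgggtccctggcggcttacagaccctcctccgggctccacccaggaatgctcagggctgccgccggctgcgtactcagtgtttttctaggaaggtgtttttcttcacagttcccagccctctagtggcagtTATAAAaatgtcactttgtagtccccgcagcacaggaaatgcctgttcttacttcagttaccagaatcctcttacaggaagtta
Scn8a: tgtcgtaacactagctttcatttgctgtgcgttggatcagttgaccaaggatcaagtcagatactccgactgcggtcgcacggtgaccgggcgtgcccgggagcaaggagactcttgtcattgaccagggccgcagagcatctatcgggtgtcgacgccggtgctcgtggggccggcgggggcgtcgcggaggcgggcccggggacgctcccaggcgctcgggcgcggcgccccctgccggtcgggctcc

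GC content was 46.8% in the Scn1a window, 53.2% in the printed Scn2a window and 68% in the printed Scn8a window. The median over 32851 promoter entries was 52.4%. The entries not printed had 29.6% for Scn2a and 53.2% for Scn8a, so the order of these genes in GC content depends on which entry is taken. Both strands were searched for the letters TGACG (core of the cyclic AMP response element), TGANTCA (AP-1), CACGTG (an E-box), TATAAA (the TATA element) and GGGCGG (the GC box), and for the MEF2 element with any bases allowed at its centre. The shares of all windows of this length that hold them were 17.8% for TGACG, 6.75% for TGANTCA, 6.02% for CACGTG, 12.4% for TATAAA, 32.7% for GGGCGG and 3.2% for MEF2. Over the 8 entries of members the only match was the TATAAA printed in the Scn2a window.

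Library totals ranged from 20573886 to 21914112 counts with K+ ICN, from 17924988 to 20640622 with Na+ ICN and from 18532789 to 22906950 with PA. A gene was tested with edgeR's quasi-likelihood test when it had enough counts by a minimum of 10, and 15183 genes were. Of the members, 7 passed and Scn4b did not. A gene is said to rise or fall when its Benjamini-Hochberg adjusted p over all genes tested was below 0.05. Levels are CPM, counts scaled to library size with TMM factors. The pan-neuronal markers summed to 5184 to 5286 CPM with K+ ICN, 5611 to 5873 CPM with Na+ ICN and 5828 to 5912 CPM with PA, so the label of neurons holds. Markers of other cells were present too, with astrocyte markers at 527 to 623 CPM over all 9 libraries. Microglial markers summed to 5.72 to 9.19 CPM with Tmem119 at 0 to 3 counts. Endothelial markers summed to 13.5 to 17.7 CPM with K+ ICN, 10.2 to 12.8 CPM with Na+ ICN and 9.05 to 13.6 CPM with PA. Of these, Cldn5 had 0 counts in 7 libraries, while Kdr had 152 to 374 counts a library. Kdr rose with K+ ICN against PA (log2 fold change 0.58, adjusted p = 0.00729, edgeR), though the groups overlapped.

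By count, more of the sodium channel genes fell with K+ ICN than with Na+ ICN, and the member with the clearest fall differed between them. With K+ ICN, 4 of the 7 tested members fell relative to PA and none rose, namely Scn2a, Scn3a, Scn8a and Scn3b. Over all genes tested, 15.8% were called in this comparison in either direction, 8.15% higher and 7.68% lower. With Na+ ICN, 1 of the 7 fell relative to PA, namely Scn1a, where 10.9% of all genes were called, 5.63% higher and 5.22% lower. Between K+ ICN and Na+ ICN, Scn1a was higher and Scn3b lower with K+ ICN, where 6.58% of all genes were called, 3.33% higher and 3.25% lower. The counts of members called do not themselves compare the treatments gene by gene, and for Scn2a, Scn3a and Scn8a the direct difference between K+ ICN and Na+ ICN did not pass the test. The median log2 fold change of the 7 tested members was -0.15 for K+ ICN against PA, -0.09 for Na+ ICN against PA and -0.08 for K+ ICN against Na+ ICN, while over all genes tested each median lay within 0.01 of 0. The 3 PA libraries serve both ICN comparisons, which are therefore not independent.

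**Figure D1:**
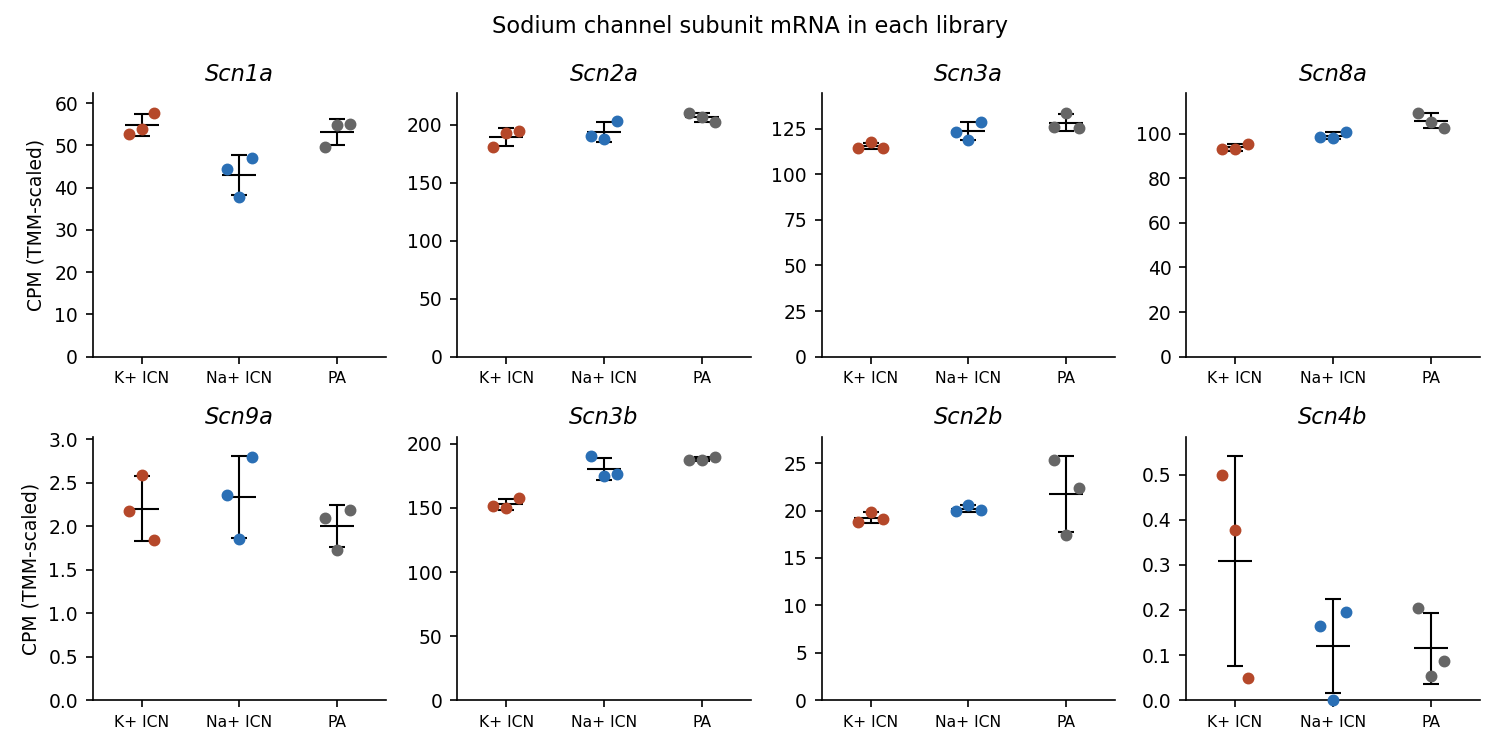
Level of each of the 8 subunit genes in CPM (vertical axis from 0, its own scale in each panel) for K+ ICN, Na+ ICN and PA; points are libraries and the bars are the mean and SD of 3. The 3 Na+ ICN points of Scn1a lie below all others, and the 3 K+ ICN points of Scn3b lie below all others.

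Scn1a, the alpha subunit prominent in GABAergic interneurons, was the 1 member that fell with Na+ ICN and not with K+ ICN, and the difference between them passed the test. Its level was 52.6, 54.0 and 57.7 CPM in the K+ ICN libraries, 44.4, 37.7 and 46.9 CPM in the Na+ ICN libraries, and 49.7, 54.8 and 55.0 CPM in the PA libraries. All 3 Na+ ICN values lay below all 6 others, and the K+ ICN and PA values overlapped. Scn1a fell by 0.31 on the log2 scale with Na+ ICN against PA (SE 0.069, adjusted p = 0.00197, edgeR), a level 0.809 times that with PA. For K+ ICN against PA the log2 fold change was 0.04 (SE 0.068, adjusted p = 0.756). For K+ ICN against Na+ ICN it was 0.35 (SE 0.069, adjusted p = 4.23e-04), or 1.27-fold. Without Na+ ICN replicate 2, its lowest library, the fall against PA was 0.22 on the log2 scale with an adjusted p of 0.0477.

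Some markers of GABAergic neurons were also lower with Na+ ICN. The 9 markers summed to 747 to 768 CPM with K+ ICN, 679 to 698 CPM with Na+ ICN and 776 to 795 CPM with PA. Of the 8 tested, 4 fell with Na+ ICN against PA, namely Gad1, Gad2, Slc32a1 and Npy, and none rose. The other 4 were not called, with log2 fold changes of -0.12 for Lhx6, -0.06 for Dlx1, -0.02 for Sst and 0.04 for Dlx2. Over all genes tested, 5.22% were called lower and 5.63% higher for Na+ ICN against PA. Gad1, which makes GABA, fell by 0.31 on the log2 scale with Na+ ICN against PA (adjusted p = 7.37e-09, edgeR). Gad1 and Npy were higher with K+ ICN than with Na+ ICN, and Gad2 and Lhx6 fell with K+ ICN against PA, where Scn1a was not called. The last 2 calls were lost without K+ ICN replicate 1 or PA replicate 2 and with some other libraries left out, and the fall of Slc32a1 was lost without Na+ ICN replicate 3 (adjusted p = 0.103). Pvalb, which marks a class of fast-spiking interneurons, had 0 to 3 counts a library. Excitatory markers stood at 1028 to 1058 CPM with K+ ICN, 1069 to 1099 CPM with Na+ ICN and 1058 to 1075 CPM with PA. Of these 6 genes, Slc17a7 rose with K+ ICN against PA (log2 fold change 0.21, adjusted p = 0.0182, edgeR). Neurod6 was lower with K+ ICN than with Na+ ICN (-0.10, adjusted p = 0.0396). None was called for Na+ ICN against PA, though 1 was called higher with upper-quartile scaling. In bulk RNA, fewer cells of a type and less RNA per cell cannot be told apart.

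Set against these markers, Scn1a with Na+ ICN lay below K+ ICN for both classes, and below PA without overlap for the excitatory class only. Per 100 CPM of GABAergic markers there were 7.22 ± 0.352 CPM of Scn1a with K+ ICN, 6.24 ± 0.607 with Na+ ICN and 6.79 ± 0.457 with PA (SD, n = 3 each). The Na+ ICN range of 5.56 to 6.72 overlapped the PA range of 6.26 to 7.07 and lay below the K+ ICN range of 6.86 to 7.56. Per 100 CPM of excitatory markers there were 5.27 ± 0.17 CPM of Scn1a with K+ ICN, 3.98 ± 0.408 with Na+ ICN and 4.99 ± 0.29 with PA. Here the Na+ ICN range of 3.51 to 4.27 lay below the PA range of 4.66 to 5.2. The part of the GABAergic markers in the fall of Scn1a was not tested.

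**Figure D2:**
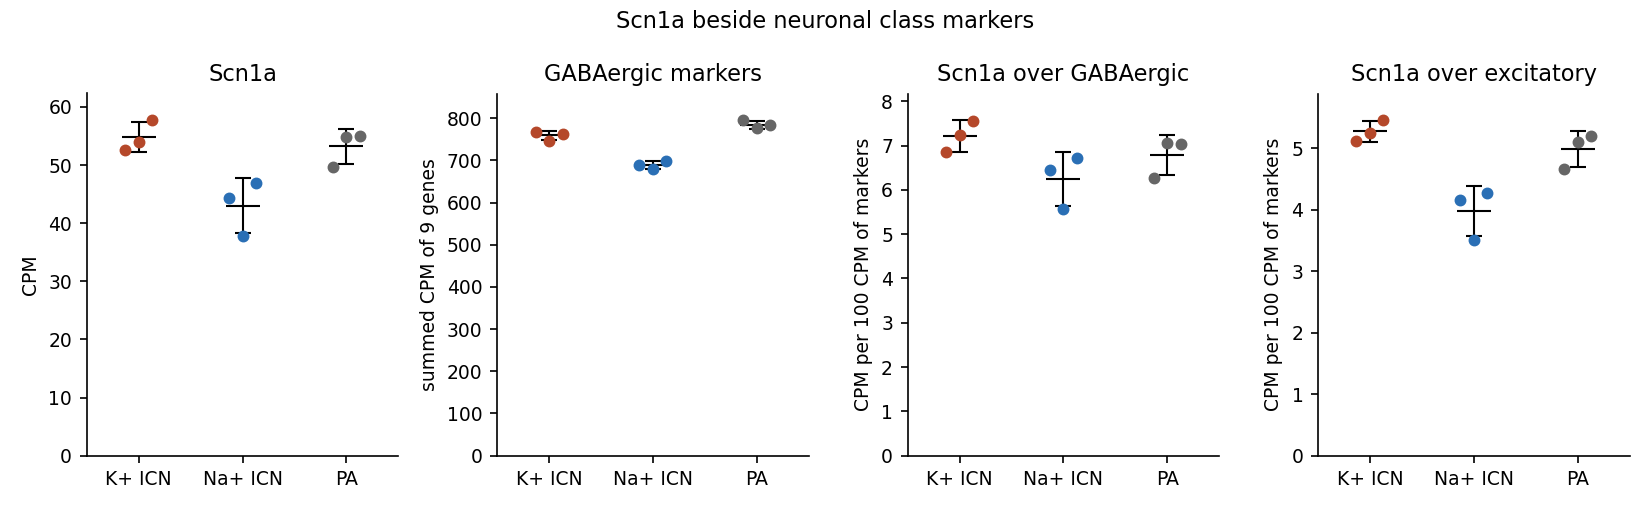
Scn1a in CPM, the summed CPM of 9 GABAergic markers, and Scn1a in CPM per 100 CPM of GABAergic and of excitatory markers (vertical axes from 0) for K+ ICN, Na+ ICN and PA; points are libraries and bars the mean and SD of 3. Na+ ICN is lowest in the first 2 panels without overlap, overlaps PA in the panel over GABAergic markers, and lies below PA in the panel over excitatory markers.

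Scn2a, the main alpha subunit of young excitatory axons, fell a little with K+ ICN. Its level was 181, 193 and 195 CPM in the K+ ICN libraries, 190.2, 188 and 203 CPM in the Na+ ICN libraries, and 210.0, 207 and 202 CPM in the PA libraries. The K+ ICN and PA libraries did not overlap, while the Na+ ICN libraries overlapped both. The log2 fold change was -0.12 for K+ ICN against PA (SE 0.037, adjusted p = 0.0171, edgeR) and -0.09 for Na+ ICN against PA (adjusted p = 0.118). K+ ICN against Na+ ICN gave -0.03 (adjusted p = 0.752). The call for K+ ICN against PA was lost without K+ ICN replicate 1 (adjusted p = 0.158), PA replicate 1 (0.0817) or PA replicate 2 (0.05).

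Scn3a, the alpha subunit most typical of embryonic and newborn brain, also fell with K+ ICN. Its level was 114, 118 and 115 CPM in the K+ ICN libraries, 123, 119 and 129 CPM in the Na+ ICN libraries, and 126, 134 and 125 CPM in the PA libraries. All 3 K+ ICN values lay below all 6 others. The log2 fold change was -0.15 for K+ ICN against PA (SE 0.041, adjusted p = 0.0074, edgeR), -0.05 for Na+ ICN against PA (adjusted p = 0.499) and -0.10 for K+ ICN against Na+ ICN (adjusted p = 0.165). Without PA replicate 2, its highest library, the adjusted p for K+ ICN against PA was 0.0707.

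Scn8a, the alpha subunit that comes to dominate mature initial segments and nodes, fell with K+ ICN by a like amount. Its level was 92.9, 93.1 and 95.5 CPM in the K+ ICN libraries, 98.3, 97.9 and 101 CPM in the Na+ ICN libraries, and 109, 105 and 103 CPM in the PA libraries. None of the 3 groups overlapped another. The log2 fold change was -0.17 for K+ ICN against PA (SE 0.044, adjusted p = 0.00371, edgeR), a level 0.888 times that with PA. Na+ ICN against PA gave -0.09 (adjusted p = 0.18) and K+ ICN against Na+ ICN gave -0.08 (adjusted p = 0.367), neither of which passed the test. Groups that do not overlap were frequent among all genes tested, at 32% for K+ ICN against PA (16.2% higher, 15.8% lower), 26.7% for Na+ ICN against PA (13.5% higher, 13.2% lower) and 22% for K+ ICN against Na+ ICN (10.9% higher, 11.1% lower).

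Scn9a, best known from peripheral sensory neurons, was read at 32 to 57 counts a library and no change was detectable at this depth. Its level was 2.17, 2.59 and 1.84 CPM in the K+ ICN libraries, 2.35, 1.85 and 2.79 CPM in the Na+ ICN libraries, and 2.10, 1.72 and 2.19 CPM in the PA libraries, and all 3 groups overlapped. Its standard errors of 0.28 on the log2 scale were larger than each of its 3 log2 fold changes, which were 0.13 for K+ ICN against PA, 0.22 for Na+ ICN against PA and -0.09 for K+ ICN against Na+ ICN. Scn9a was also the 1 member whose exons overlapped another annotated gene. The antisense gene Gm13629 covers 180 of its exon bases and had 0 to 0.112 CPM.

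Scn3b, a beta subunit held to the alpha subunit without a disulfide bond and abundant in embryonic brain, had the largest fall of the 7 tested members with K+ ICN. Its level was 152, 149.7 and 158 CPM in the K+ ICN libraries, 190.2, 175 and 177 CPM in the Na+ ICN libraries, and 187, 188 and 190.2 CPM in the PA libraries. All 3 K+ ICN values lay below all 6 others, and the Na+ ICN and PA values overlapped. Scn3b fell by 0.30 on the log2 scale with K+ ICN against PA (SE 0.038, adjusted p = 3.03e-08, edgeR), a level 0.812 times that with PA. With K+ ICN against Na+ ICN it fell by 0.24 (SE 0.038, adjusted p = 9.12e-06), or to 0.848 times. Na+ ICN against PA gave -0.06 (SE 0.037, adjusted p = 0.337).

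Scn2b, a beta subunit joined to the alpha subunit by a disulfide bond, passed no test. Its level was 18.8, 19.9 and 19.1 CPM in the K+ ICN libraries, 19.9, 20.6 and 20.1 CPM in the Na+ ICN libraries, and 25.3, 17.4 and 22.4 CPM in the PA libraries. The PA libraries spread across both ICN groups, while the K+ ICN values lay just below the Na+ ICN values. The log2 fold change was -0.18 for K+ ICN against PA (SE 0.099, adjusted p = 0.245, edgeR), -0.11 for Na+ ICN against PA (adjusted p = 0.569) and -0.07 for K+ ICN against Na+ ICN (adjusted p = 0.807). Without PA replicate 2, its lowest PA library, the K+ ICN value was -0.31 with an adjusted p of 0.0277.

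Scn4b, the disulfide-linked beta subunit associated with resurgent current, was barely read. It had 11, 8 and 1 counts in the K+ ICN libraries, 3, 0 and 4 counts in the Na+ ICN libraries, and 4, 1 and 2 counts in the PA libraries. The groups overlapped, and the 20 counts with K+ ICN against 7 in each other group were mostly from 2 libraries. A count of 0, taken to allow up to 3 counts, leaves up to 0.167 CPM in Na+ ICN replicate 2, for counting error only.

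**Figure D3:**
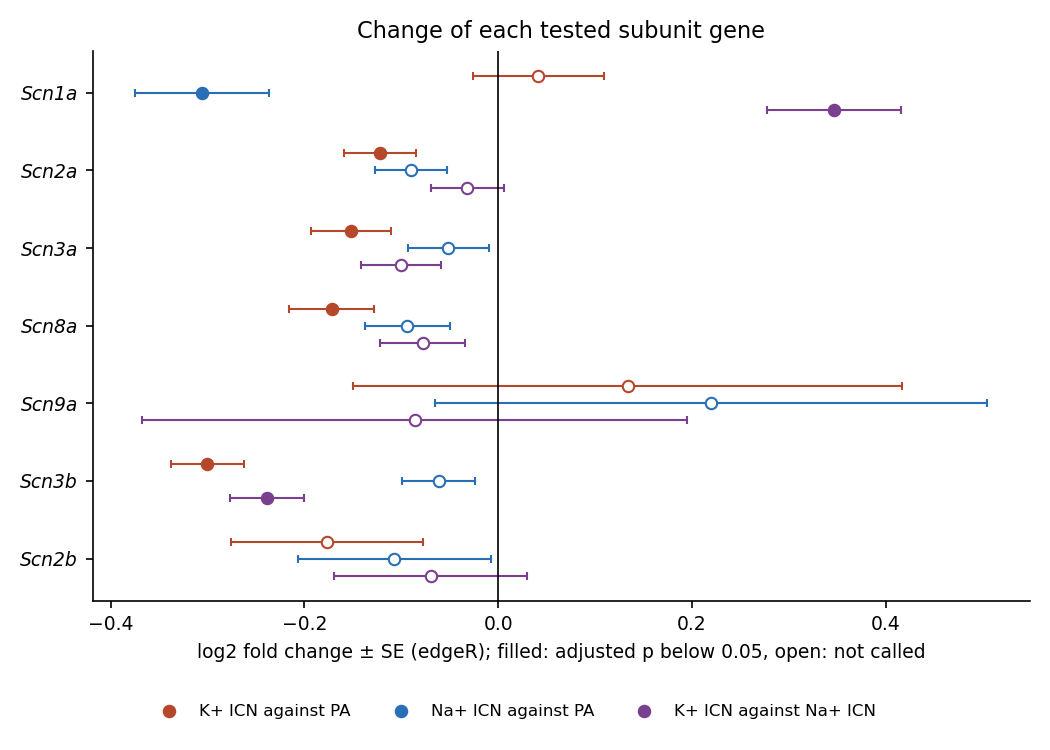
Log2 fold change with its standard error (horizontal axis) of the 7 tested subunit genes for K+ ICN against PA, Na+ ICN against PA and K+ ICN against Na+ ICN; filled points passed an adjusted p of 0.05 in edgeR and open points did not. Scn1a is called at -0.31 for Na+ ICN against PA and at 0.35 for K+ ICN against Na+ ICN, and Scn3b is called at -0.30 for K+ ICN against PA and at -0.24 for K+ ICN against Na+ ICN.

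Some pan-neuronal markers were lower with K+ ICN. Of the 6, 3 fell with K+ ICN against PA (Tubb3, Syt1 and Map2) and 1 fell with Na+ ICN against PA (Syt1). Between K+ ICN and Na+ ICN, Tubb3, Map2 and Stmn2 were lower and Snap25 higher with K+ ICN. Against PA, Snap25 had a log2 fold change of 0.09 with K+ ICN (adjusted p = 0.0508, edgeR), with all 3 K+ ICN libraries above the PA libraries, and 1 of the 6 markers was called higher under 7 of the 17 alternatives, the replicate block among them. Tubb3, the neuronal beta-tubulin, stood at 1617 ± 48.9 CPM with K+ ICN, 1933 ± 91.6 CPM with Na+ ICN and 1959.8 ± 40.5 CPM with PA (SD, n = 3 each). Markers of fibroblasts and mural cells summed to 133 to 153 CPM with K+ ICN, 114 to 126 CPM with Na+ ICN and 70.7 to 77.5 CPM with PA, and 4 of the 7 tested rose with each ICN against PA. Astrocyte markers rose in 6 of 7 with K+ ICN and in 5 of 7 with Na+ ICN against PA, and oligodendrocyte lineage markers rose in 2 and fell in 1 of 7 in both. Over all genes tested, 8.15% were called higher and 7.68% lower for K+ ICN against PA, and 5.63% higher and 5.22% lower for Na+ ICN against PA.

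Against the pan-neuronal markers, Scn3b was lower and Scn1a higher with K+ ICN than with PA without overlap, while Scn2a, Scn3a and Scn8a overlapped. Per 100 CPM of these markers Scn3b had 2.92 ± 0.108 CPM with K+ ICN, 3.15 ± 0.0777 CPM with Na+ ICN and 3.21 ± 0.0127 CPM with PA (SD, n = 3 each), and the K+ ICN range of 2.85 to 3.04 lay below the PA range of 3.20 to 3.22. Scn2a had 3.62 ± 0.178 CPM per 100 CPM with K+ ICN, 3.38 ± 0.165 with Na+ ICN and 3.52 ± 0.0869 with PA. Scn3a had 2.20 ± 0.0372 with K+ ICN, 2.16 ± 0.0865 with Na+ ICN and 2.19 ± 0.0912 with PA. Scn8a had 1.79 ± 0.045 with K+ ICN, 1.73 ± 0.0486 with Na+ ICN and 1.80 ± 0.0648 with PA. For these 3 alpha members the K+ ICN and PA ranges overlapped. Scn1a, whose CPM was not called for K+ ICN against PA, had 1.05 ± 0.0605 with K+ ICN, 0.750 ± 0.0749 with Na+ ICN and 0.907 ± 0.05 with PA. Its K+ ICN range of 0.996 to 1.11 lay above the PA range of 0.850 to 0.941. With Tubb3 left out of the markers, Scn3b still did not overlap between K+ ICN, at 4.11 to 4.37, and PA, at 4.8 to 4.85. Nor did Scn1a, at 1.46 to 1.60 with K+ ICN and 1.28 to 1.40 with PA. On the same scale Scn3a had 3.18 ± 0.0349 with K+ ICN, 3.26 ± 0.0878 with Na+ ICN and 3.29 ± 0.113 with PA. Scn8a had 2.59 ± 0.047 with K+ ICN, 2.61 ± 0.0385 with Na+ ICN and 2.71 ± 0.102 with PA, and Scn2a had 5.23 ± 0.21 with K+ ICN, 5.10 ± 0.173 with Na+ ICN and 5.29 ± 0.129 with PA. Without Tubb3, K+ ICN thus had the lowest mean for Scn3a and Scn8a, which was not so with it, and the K+ ICN and PA ranges of all 3 still overlapped. The part of the neuronal, fibroblast and glial markers in these falls was not tested.

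Levels of different genes were compared as CPM per kilobase of the longest annotated transcript. The order was the same in all 3 groups. Over the 9 libraries Scn3b was highest at a mean of 41.9 CPM per kb, followed by Scn2a at 22, Scn3a at 12.8, Scn8a at 8.70, Scn1a at 6.0, Scn2b at 4.38, Scn9a at 0.221 and Scn4b at 0.0363. Neighbours in this order did not overlap over the 9 libraries, except Scn1a and Scn2b, whose ranges were 4.50 to 6.88 and 3.74 to 5.44 CPM per kb. The early alpha subunits Scn2a and Scn3a thus stood above Scn8a and Scn1a in every library.

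Among the alpha members, Scn2a supplied 44.0% ± 0.657 of the summed level per kb with K+ ICN, 44.6% ± 0.491 with Na+ ICN and 44.2% ± 0.63 with PA (SD, n = 3 each). Scn3a supplied 25.0% with K+ ICN, 26.6% with Na+ ICN and 25.6% with PA, and Scn8a 17.0% with K+ ICN, 17.8% with Na+ ICN and 17.7% with PA. Scn1a supplied 13.5% ± 0.403 with K+ ICN, 10.5% ± 0.767 with Na+ ICN and 12.1% ± 0.725 with PA, and its 3 groups did not overlap. Its ranges were 13.2% to 14% with K+ ICN, 9.64% to 11% with Na+ ICN and 11.3% to 12.7% with PA. These shares are ratios among the members and carry no test.

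The alpha members summed to 48.3 ± 1.29 CPM per kb with K+ ICN, 48.7 ± 2.15 with Na+ ICN and 52.3 ± 0.771 with PA. The beta members, almost all of it Scn3b, summed to 41.1 ± 0.931 with K+ ICN, 47.9 ± 1.97 with Na+ ICN and 50.1 ± 0.937 with PA. The ratio of beta to alpha was 0.851 ± 0.0207 with K+ ICN, 0.985 ± 0.0595 with Na+ ICN and 0.957 ± 0.0308 with PA. All 3 K+ ICN ratios, from 0.828 to 0.869, lay below the 6 others, the lowest of which was 0.920.

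**Figure D4:**
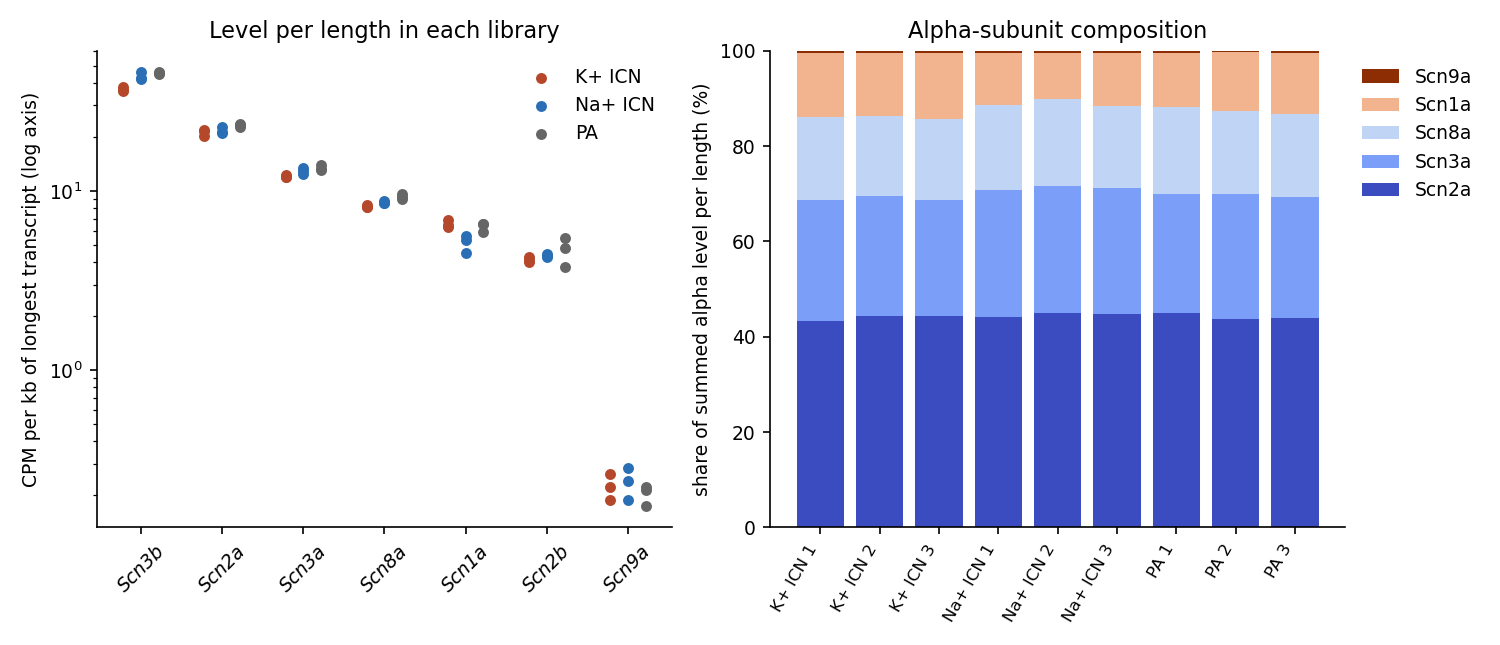
Left, level of 7 subunit genes in CPM per kb of the longest transcript (log axis), points being libraries of K+ ICN, Na+ ICN and PA; Scn4b is left off because 1 library had a count of 0. Right, share in percent of each alpha gene in the summed alpha level per kb, 1 bar per library; the Scn1a part is 13.2% to 14% with K+ ICN, 9.64% to 11% with Na+ ICN and 11.3% to 12.7% with PA.

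The alpha members are close in sequence, which can bear on how reads are shared among them. Coding sequences of the alpha members were 72.5% to 83.9% identical in pairs, with Scn2a and Scn3a the closest, and those of the beta members were 59.2% to 61.5% identical. Exact windows of 50 bases shared with another member made up 8.05% of the longest transcript of Scn3a, 7.58% of Scn2a, 5.41% of Scn1a, 5.36% of Scn9a and 0.0527% of Scn8a, and none of the beta members. How the authors counted reads that match several genes is not given in the sources used here, so the counts of Scn1a, Scn2a, Scn3a and Scn9a are uncertain to that extent.

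The other subunit genes described here, 4 alpha subunits, were low. Scn7a, a sodium-sensing relative, summed to 35 counts with K+ ICN, 30 with Na+ ICN and 19 with PA, and passed no test in any comparison. Scn4a and Scn11a, the alpha subunits of skeletal muscle and of pain-sensing neurons, had 0 to 3 counts a library. Scn10a, another alpha subunit of pain-sensing neurons, had 0 counts in all 9 libraries, which allows up to 0.0165 CPM over their total.

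Other genes stand between the alpha members on chromosome 2, and 1 of the 3 measured there moved as well. Csrnp3, at chr2:65845767-66031546 on the plus strand between Scn2a and Scn1a, encodes a nuclear protein and fell with K+ ICN against PA by 0.23 on the log2 scale (SE 0.033, adjusted p = 8.06e-07, edgeR). It was also lower with K+ ICN than with Na+ ICN, by a log2 fold change of -0.18 (adjusted p = 2.11e-04). Galnt3 and Ttc21b, the other two, passed no test.

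Genes that work with the channels were counted as lists. Of all genes tested, 8.15% were called higher and 7.68% lower for K+ ICN against PA. The shares for Na+ ICN against PA were 5.63% higher and 5.22% lower. Of the 4 fibroblast growth factor homologous factors, which bind the cytoplasmic tail of the alpha subunit, 1 rose and none fell with K+ ICN against PA, and 1 rose and 1 fell with Na+ ICN against PA. Fgf11 had 35.2, 41.7 and 36.6 CPM with K+ ICN, 36.0, 35.2 and 37.3 CPM with Na+ ICN and 29.9, 33.2 and 29.5 CPM with PA, so both ICN groups lay above PA. It rose by 0.29 on the log2 scale with K+ ICN (adjusted p = 0.00434, edgeR) and by 0.23 with Na+ ICN (adjusted p = 0.0431), and 8 of the 17 alternatives ended the second call, among them leaving out any Na+ ICN library, PA replicate 1, PA replicate 3 or K+ ICN replicate 3. Without K+ ICN replicate 2 the first call had an adjusted p of 0.0789. Fgf12 fell by 0.18 with Na+ ICN (adjusted p = 0.0117), a call lost without Na+ ICN replicate 2 (0.0799), PA replicate 2 (0.0682) or PA replicate 3 (0.0586).

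A list of genes of the axon initial segment and node scaffold fell in part with K+ ICN. Of its 8 genes, 5 fell with K+ ICN against PA and 2 with Na+ ICN against PA, and none rose. They were Nrcam, Trim46, Cntn1, Nfasc and Ank2 with K+ ICN, and Nrcam and Cntn1 with Na+ ICN. Over all genes tested, 7.68% were called lower with K+ ICN against PA and 5.22% with Na+ ICN against PA. Ank3, the ankyrin that binds the channels directly, passed no test, and neither did Sptbn4 or Sptan1. For K+ ICN against PA their log2 fold changes were 0.004 for Ank3, 0.02 for Sptbn4 and 0.03 for Sptan1. Nrcam, a cell adhesion molecule of nodes, had 308, 332 and 314 CPM with K+ ICN, 326, 319.9 and 344 CPM with Na+ ICN and 363, 368 and 362 CPM with PA. It fell by 0.19 on the log2 scale with K+ ICN (adjusted p = 1.13e-05, edgeR) and by 0.14 with Na+ ICN (adjusted p = 0.00212). Trim46, which organises the microtubules of the proximal axon, fell by 0.17 with K+ ICN (adjusted p = 0.00403), and without K+ ICN replicate 2 its adjusted p was 0.0507. Cntn1 was called with K+ ICN except without K+ ICN replicate 1 (adjusted p = 0.0533), and its call with Na+ ICN ended without Na+ ICN replicate 1 or 2 or PA replicate 1 or 2. Nfasc lost its call without K+ ICN replicate 1 or 2 or PA replicate 1 or 2, and Ank2 without K+ ICN replicate 1 or PA replicate 1 or 2. The count of 5 became 2 without K+ ICN replicate 1, and 3 without K+ ICN replicate 2, PA replicate 1 or PA replicate 2, or with upper-quartile scaling. With upper-quartile scaling the scaffold genes called for Na+ ICN against PA were 1 higher and 1 lower.

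Genes for enzymes that act on the channels changed in part. Bace1, the protease that cuts beta subunits, had 99.5, 98.0 and 99.4 CPM with K+ ICN, 106, 105 and 101 CPM with Na+ ICN and 119, 122 and 127 CPM with PA. Both ICN groups lay below PA, by 0.31 on the log2 scale with K+ ICN (log2 fold change -0.31, adjusted p = 1.75e-07, edgeR) and by 0.24 with Na+ ICN (log2 fold change -0.24, adjusted p = 7.39e-05). The ubiquitin ligase genes Nedd4l and Nedd4 had small changes that 6 of the 17 alternatives each ended, -0.10 for Nedd4l with K+ ICN (adjusted p = 0.0469) and 0.09 for Nedd4 with Na+ ICN (adjusted p = 0.031). The libraries whose removal ended them were K+ ICN replicate 2, PA replicate 2 and PA replicate 3 for Nedd4l, and Na+ ICN replicates 2 and 3 and each PA library for Nedd4.

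**Figure D5:**
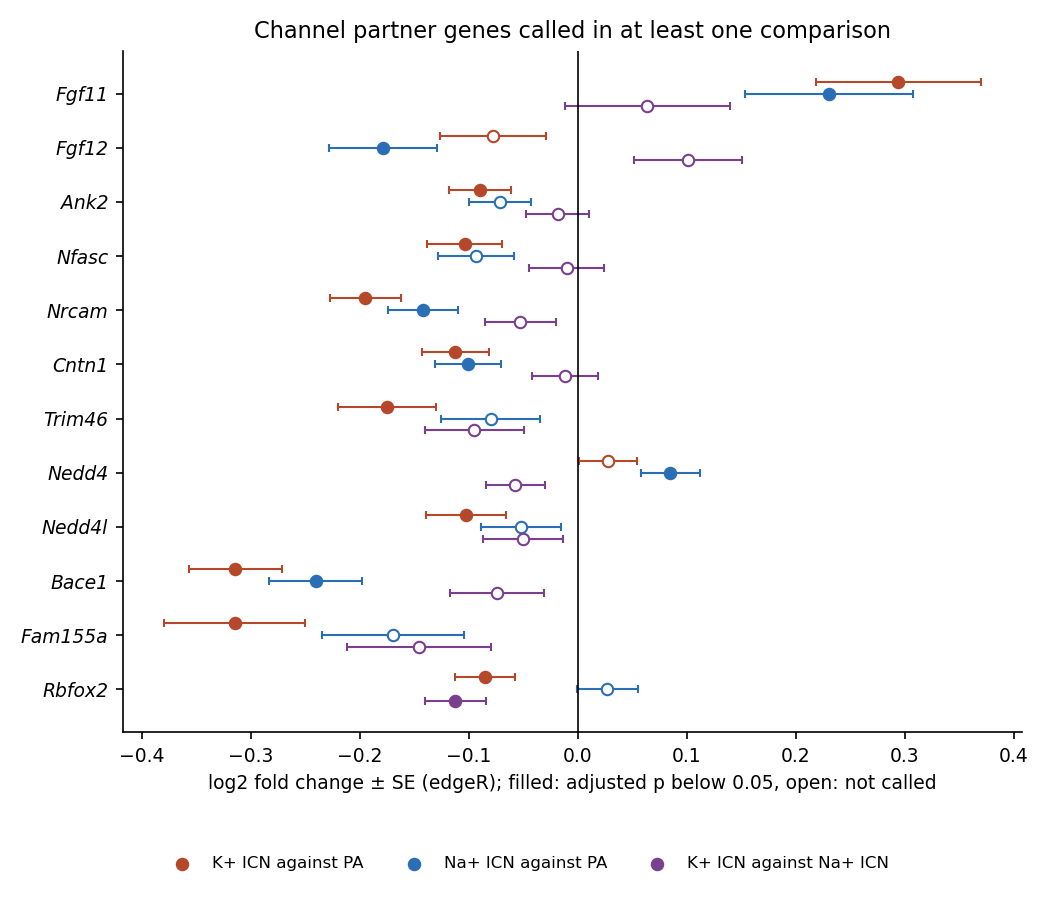
Log2 fold change with its standard error (horizontal axis) of 12 channel partner genes called in at least 1 comparison, for K+ ICN against PA, Na+ ICN against PA and K+ ICN against Na+ ICN; filled points passed an adjusted p of 0.05 in edgeR. Bace1 and Nrcam are called lower with both ICNs against PA, and Fgf11 is called higher with both.

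In the sodium leak channel complex, a separate route of resting sodium entry, 1 of the 4 tested genes fell with K+ ICN against PA and none changed with Na+ ICN against PA. It was Fam155a, an accessory subunit of the complex, with 44.9, 46.8 and 40.7 CPM with K+ ICN, 46.6, 51.0 and 49.0 CPM with Na+ ICN and 54.0, 57.8 and 53.0 CPM with PA. Its log2 fold change for K+ ICN against PA was -0.31 (SE 0.065, adjusted p = 3.32e-04, edgeR), and the Na+ ICN value of -0.17 did not pass the test (adjusted p = 0.0891). Of all genes tested, 7.68% were called lower for K+ ICN against PA and 3.25% for K+ ICN against Na+ ICN. Of 5 regulators of transcription and splicing of the channel genes, Rbfox2, a splicing factor, was lower with K+ ICN than with PA (log2 fold change -0.08, adjusted p = 0.0279) and than with Na+ ICN (-0.11, adjusted p = 0.00561). The first of these calls was ended by 6 of the 17 alternatives, upper-quartile scaling and the removal of K+ ICN replicate 1, K+ ICN replicate 3 or any PA library. The second was lost without K+ ICN replicate 3 (adjusted p = 0.0577) or Na+ ICN replicate 2 (0.0616).

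For each of the 5 members called in some comparison, the 3 genes whose log2 CPM ran most alike over the 9 libraries were taken from 10774 genes with a mean of at least 5 CPM. The libraries share their 3 groups, so the values of r are descriptions and carry no p. The genes were picked for this likeness, so a pattern shared with the member is not a further result. For Scn1a they were Pcdh11x (r = 0.966), Snhg11 (r = 0.966) and Nckap1 (r = 0.965). Pcdh11x, a protocadherin, had 88.7, 89.2 and 98.9 CPM with K+ ICN, 72.1, 59.6 and 73.4 CPM with Na+ ICN and 92.5, 93.3 and 94.8 CPM with PA, so its Na+ ICN libraries lay below all others. For Scn3b they were Rnf130 (r = 0.979), Zbtb18 (r = 0.975) and Gap43 (r = 0.973). Gap43, a protein of growing axons, had 766, 756 and 765 CPM with K+ ICN, 807, 801 and 794 CPM with Na+ ICN and 808, 803 and 819 CPM with PA, so its K+ ICN libraries lay below all others. For Scn2a they were Ate1 (r = 0.979), Marchf8 (r = 0.952) and Cggbp1 (r = 0.949). For Scn3a they were Slc35b4 (r = 0.972), Cdh12 (r = 0.967) and Rnf2 (r = 0.950). For Scn8a they were Edil3 (r = 0.981), Kif2a (r = 0.971) and Wdr47 (r = 0.970).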

How the data were processed

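The authors deposited 1 table of raw counts, whole numbers per gene symbol, with 9 columns that were all mapped to samples by name. Libraries were polyadenylated and stranded, read from one end, per the labels and the series design. Trim Galore, STAR and RSEM with the mouse build GRCm38 (mm10) were used, per the submitters' processing notes. Versions, annotation, counting program, strand setting and the treatment of shared reads were not given in the sources used here.

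The test was edgeR 4.0.16 (R 4.3.3), quasi-likelihood with robust fitting. The filter filterByExpr at its minimum of 10 counts kept 15183 genes, which hold 99.93% of counts. TMM scaled the libraries, and one fit took all 9, with Benjamini-Hochberg adjustment over the genes tested and a threshold of 0.05. The common dispersion gave a coefficient of variation of 5.67% between replicates. Standard errors are the absolute log2 fold change over the square root of the F statistic. The chi-square of replicate pairs was 3.23 to 4.18 per degree of freedom, above counting noise, so none was merged. Shares and levels per kb used the longest transcript of GENCODE vM21.

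The members and lists were chosen with earlier results of these data known. Named are the 8 members, the other subunit genes by counts, the called genes of each partner list by size of change, at most 4 a list, and the 3 genes most alike in pattern, with predicted genes left out. Some genes that this rule takes are left out of the text. Ank2 and Csrnp3, with its neighbours, were named after their values were seen. Alternatives were DESeq2 1.42.0, limma 3.58.1 voom, other scalings and filters, a replicate block, only the libraries compared, union exon length (added after seeing the data), and leaving out each library.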

Additional observations from a re-analysis of the deposited data

Results flagged for a closer look

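The effects of the ICNs differed for 2 members, by the direct comparison of K+ ICN with Na+ ICN, adjusted over all 15183 genes tested with edgeR. Scn1a had a log2 fold change of 0.35 for K+ ICN over Na+ ICN, with every K+ ICN library above every Na+ ICN library. Scn3b had a log2 fold change of -0.24 in the same comparison, with every K+ ICN library below every Na+ ICN library. No cause was tested for either.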

How the results depend on the processing

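The calls of Scn1a (Na+ ICN against PA, K+ ICN against Na+ ICN), Scn8a (K+ ICN against PA) and Scn3b (K+ ICN against PA and against Na+ ICN) held under all 17 alternatives. Their highest adjusted p was 0.0477, for Scn1a in Na+ ICN against PA. With 1 library left out, the members called were 3 to 4 for K+ ICN against PA, 1 to 2 for Na+ ICN against PA and 2 for K+ ICN against Na+ ICN, and Scn2a was then called in Na+ ICN against PA without Na+ ICN replicate 3 (adjusted p = 0.0349). The other alternatives gave 4, 1 and 2 in that order. Over all genes 2403, 1648 and 999 were called in the same order, and 1778 to 2480, 1079 to 1611 and 714 to 976 with 1 library left out. For Na+ ICN against PA it was 1089 without Na+ ICN replicate 2 and 1079 without PA replicate 3. With upper-quartile factors, 1440 genes were higher and 902 lower for K+ ICN against PA, in place of 1237 and 1166, and 1042 higher and 552 lower for Na+ ICN against PA, in place of 855 and 793.

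The signs that turned belonged to values that passed no test, and the cause was not tested. With 1 library left out, Scn1a in K+ ICN against PA ran from -0.00477 to 0.0692, below 0 without K+ ICN replicate 3 (-0.00201) or PA replicate 1. Scn2b in Na+ ICN against PA ran from -0.239 to 0.0134, above 0 without PA replicate 1. In K+ ICN against Na+ ICN, Scn2a ran from -0.0544 to 0.00486, above 0 without K+ ICN replicate 1 (0.00228) or Na+ ICN replicate 3, and Scn9a from -0.225 to 0.0663, above 0 without K+ ICN replicate 3 (0.0227) or Na+ ICN replicate 3. With no low-count filter Scn4b had 1.38 for K+ ICN against PA, 0.0728 for Na+ ICN against PA and 1.3 for K+ ICN against Na+ ICN, none past the threshold. With union exon length, Scn1a made up 14% of the alpha level with K+ ICN; Scn2a made up 42.3% with K+ ICN, 42.9% with Na+ ICN and 42.5% with PA; Scn3a made up 26.3% with K+ ICN, 28% with Na+ ICN and 27% with PA.

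With the replicate number as a block, 2612, 1825 and 1165 genes and 4, 1 and 2 members were called in that order, and no member's call changed. Same-numbered libraries correlated from -0.0234 to 0.0483 in their deviations, and differently numbered libraries from -0.0366 to 0.0395. These ranges overlap and the groups are small, so they do not decide whether the numbers pair the samples. Depth limits Scn4b and Scn9a.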
